A study of Mus musculus with 2 samples.

Results

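The Dlg, Shank and Homer genes encode the layered scaffold of the postsynaptic density, the protein mesh under the receptors of excitatory synapses. The 10 genes Dlg1 to Dlg4, Shank1 to Shank3 and Homer1 to Homer3 were chosen by symbol, through the GENCODE M21 names of the deposited identifiers. They are 10 of the 43346 annotated genes in the deposited quantifications, and their 86 transcripts are among 129984 entries. The rule uses names and no measured value, and it was set with earlier results of these data known. The study sequenced polyadenylated RNA over 200 nt, depleted of ribosomal RNA, from whole frontal cortex of C57BL/6J mice, an inbred strain, at 8 weeks of age. It holds 1 group of 2 biological replicates, each from littermates that the labels give as pooled male and female, so there is no contrast between conditions. The comparisons are between genes and transcripts within a library and between the 2 libraries.

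Dlg proteins are membrane-associated guanylate kinases that hold NMDA receptors, AMPA receptor auxiliary subunits and adhesion molecules at the membrane through PDZ domains. Shank proteins form the layer beneath, bound to the Dlg proteins through Dlgap proteins and tied to actin regulators. Homer proteins join Shank to group I metabotropic glutamate receptors and to calcium channels of the endoplasmic reticulum, and their long forms multimerise through a coiled coil. A short form, Homer1a, lacks the coiled coil and is known as a product of neuronal activity.

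Expected counts, the deposited estimates of fragments per entry, summed to 106084891 in replicate 1 and 90476207 in replicate 2. The libraries went against their sex label: Xist, the RNA of the inactive X chromosome, stood at 0.25 and 110 TPM in replicates 1 and 2, and the 4 Y-linked genes listed were high in replicate 1 and at 0.05 TPM or less in replicate 2. They also differed in 11 activity-induced genes, whose summed level was 240 TPM in replicate 1 and 474 TPM in replicate 2. The tissue label was checked against cell markers. Those of cortical excitatory neurons summed to 1206 and 1164 TPM and those of Purkinje cells to 33.0 and 30.6 TPM, most of it Calb1 at 28.0 and 25.7 TPM, with Pcp2 at 1.11 and 0.76 TPM. The olfactory bulb markers summed to 233 and 242 TPM, with Doc2g at 149 and 161 TPM, Th at 68.9 and 66.6 TPM and Eomes at 15.1 and 14.2 TPM. Whether the dissection held olfactory bulb tissue was not tested. Intervals below cover counting error, or the assignment of reads to transcripts, and not the spread between animals. In bulk tissue, fewer cells of a type and less RNA per cell cannot be told apart.

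Homer1 is read as both short and long forms, and the coding sequences where its transcripts part are shown here because the results below turn on that difference. Each line gives the last 20 coding bases shared with the long transcript Homer1-203 in lower case and the bases that follow in capitals, from the GENCODE M21 coding sequence on GRCm38, plus strand. In Homer1-204 and Homer1-206 the coding sequences leave that of Homer1-203 after chromosome 13 position 93356079, after 527 shared bases.
Homer1-203 at the branch: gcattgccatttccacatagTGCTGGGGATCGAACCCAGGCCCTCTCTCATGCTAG
Homer1-204 to its stop: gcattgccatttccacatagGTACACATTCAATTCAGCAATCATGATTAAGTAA
Homer1-206, first 60 bases after the branch: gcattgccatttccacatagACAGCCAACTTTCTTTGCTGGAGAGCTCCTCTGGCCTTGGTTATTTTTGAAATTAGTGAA
Homer1-207 to its stop: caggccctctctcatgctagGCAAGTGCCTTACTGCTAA
Homer1-204 added 34 bases of its own and then stopped, which gives 186 codons. Homer1-207 followed Homer1-203 for 563 bases, to position 93386380, added 19 and stopped at 193 codons. Homer1-206 had 175 bases of its own and 233 codons. Homer1-203 has 366 codons, and Homer1-202, which starts at another first exon, has 370. Homer1-206 is 2574 nt long in the deposited files against 2580 nt in M21, and Homer1-202 is 3287 against 4287 nt. The quantified forms of Homer1-206 and Homer1-202 may therefore not have the M21 coding sequences.

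Dlg4 stood far above the other 9 scaffold genes. It encodes PSD-95, the main Dlg protein of mature excitatory synapses (ENSMUSG00000020886.12, chromosome 11, 70016942 to 70047522, plus strand, mm10). TPM, a share of transcripts adjusted for length, was 330.64 in replicate 1 and 341.75 in replicate 2, a mean of 336 ± 7.86 (SD, n = 2). The deposited intervals of the 2 libraries lie above those of each other member, and 99.1% of protein-coding genes had a lower mean TPM. Dlg4 made up 68.5 ± 0.849% of the Dlg total.

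The other Dlg genes were close to each other. Dlg2 (ENSMUSG00000052572.11, chromosome 7, 90476672 to 92449247, plus strand) encodes PSD-93, the closest relative of PSD-95, and stood at 56.37 and 57.83 TPM in replicates 1 and 2. Dlg3 (ENSMUSG00000000881.8, chromosome X, 100767722 to 100818410, plus strand) encodes SAP102, known for its part at young synapses, and stood at 52.91 and 50.46 TPM. Dlg1 (ENSMUSG00000022770.12, chromosome 16, 31663443 to 31875129, plus strand) encodes SAP97, which also acts in epithelia, and stood at 46.9 and 44.4 TPM. Dlg2 was above Dlg3 and Dlg3 above Dlg1 in both libraries. The log2 ratio of Dlg4 over Dlg2 was 2.56 ± 0.01, that of Dlg2 over Dlg3 0.14 ± 0.07 and that of Dlg3 over Dlg1 0.18 ± 0.01 (SD, n = 2 each).

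Among the Shank genes Shank1 led. Shank1 (ENSMUSG00000038738.11, chromosome 7, 44310253 to 44360572, plus strand), a scaffold known for its part in spine enlargement, stood at 67.24 and 57.84 TPM in replicates 1 and 2. Shank3 (ENSMUSG00000022623.11, chromosome 15, 89499623 to 89560261, plus strand), whose human counterpart is deleted in Phelan-McDermid syndrome, stood at 39.48 and 41.3 TPM. Shank2 (ENSMUSG00000037541.15, chromosome 7, 144001928 to 144424494, plus strand), a paralogue linked to autism in human, stood at 33.03 and 34.23 TPM. Shank1 was the highest of the family in both libraries, with a larger gap in replicate 1. The log2 ratio was 0.63 ± 0.20 for Shank1 over Shank3 and 0.26 ± 0.01 for Shank3 over Shank2.

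The Homer genes had the lowest TPM of the scaffold genes. Homer1 (ENSMUSG00000007617.13, chromosome 13, 93299635 to 93405129, plus strand), which encodes both short and long forms, stood at 24.37 and 27.24 TPM in replicates 1 and 2. Homer2 (ENSMUSG00000025813.9, chromosome 7, 81600481 to 81707527, minus strand), a paralogue that multimerises through the coiled coil, stood at 16.06 and 13.3 TPM. Homer3 (ENSMUSG00000003573.11, chromosome 8, 70282827 to 70294361, plus strand), known as the main Homer of Purkinje cells, stood at 9.42 and 9.11 TPM. The order was the same in both libraries. Homer1 exceeded Homer2 by 0.82 ± 0.31 and Homer2 exceeded Homer3 by 0.66 ± 0.16 on the log2 scale. Homer3 was still above 61.7% of protein-coding genes.

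**Figure D1:**
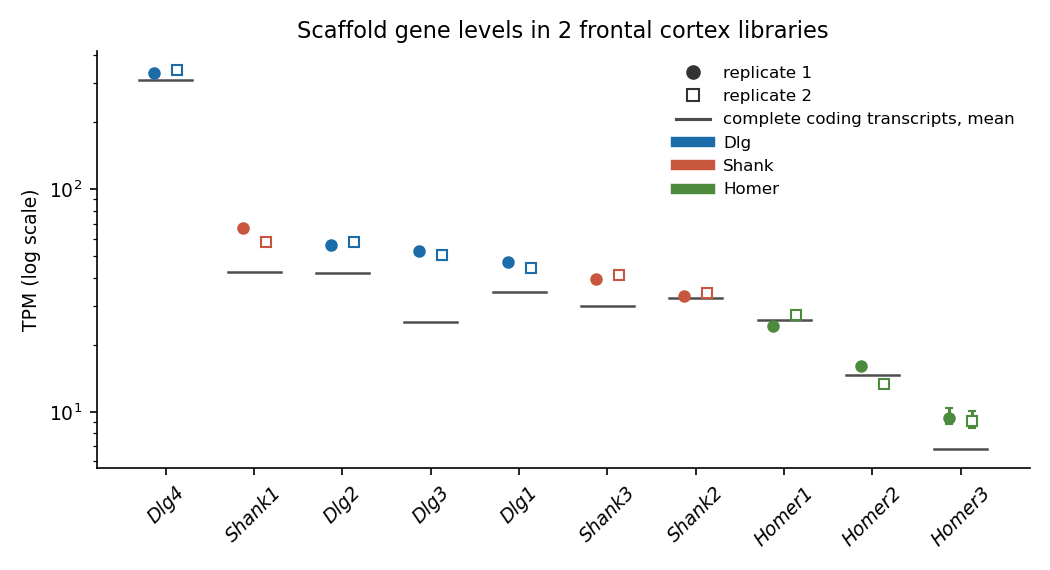
TPM on a log axis for the 10 scaffold genes in replicate 1 (filled circles) and replicate 2 (open squares), with the deposited intervals where they exceed the symbol and a line at the mean TPM of complete coding transcripts. Dlg4 stands apart near 336 TPM, and the line of Dlg3 falls to 25.4 TPM.

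Summed by family, the Dlg genes had 491 ± 5.39 TPM, the Shank genes 137 ± 4.51 TPM and the Homer genes 49.8 ± 0.141 TPM. All 10 together summed to 676.42 TPM in replicate 1 and 677.46 TPM in replicate 2, of which the Dlg family took 72.5 ± 0.717%. A pair of genes was counted as beyond the spread when the ratio had the same sign in both libraries, its mean exceeded its SD and the deposited intervals were apart in both. All 12 within-family pairs met this. An exact sign-flip test over 2 libraries cannot go below p = 0.5, so no p is given. Of the 9 neighbours in the order of levels, 8 pairs met it as well. Shank1 and Dlg2 did not, with a log2 ratio of 0.13 ± 0.18 and overlapping intervals in replicate 2. The share of all gene pairs that meet this rule was not computed, so these counts do not set the scaffold genes apart from other genes.

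These orders depend on which transcripts are counted. With complete coding transcripts alone, an alternative chosen after seeing the data, Dlg3 had 25.4 ± 2.15 TPM and Dlg1 34.4 ± 0.467 TPM, so that the log2 ratio of Dlg3 over Dlg1 was -0.44. Homer1, at 25.8 ± 2.04 TPM, then differed from Dlg3 by less than the spread between libraries. Shank3 then had 30.0 ± 2.30 TPM and Shank2 32.5 ± 1.27 TPM, a ratio of -0.12. Expected counts, which are not divided by length, also put Homer2 above Homer1, with 14339 and 10756 counts for Homer2 and 6428 and 6857 for Homer1. In replicate 1 Homer2 was also above Dlg1, which had 13522 counts there and 11889 in replicate 2. The leading Homer2 transcript is 10999 nt long in the deposited files but 1736 nt in M21, and the TPM of Homer2 depends on the length used.

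Each of the 10 genes had the same leading transcript in both libraries, and in 9 of the 10 it carried a complete coding sequence. The exception was Dlg3, where the noncoding Dlg3-208 took 48.1 and 51.6% of the gene's TPM in replicates 1 and 2. The leading coding form of that gene, Dlg3-202, took 24.5 and 20.3%. Codon numbers are those of M21, and 63 of the 85 transcripts listed there have the same length in the deposited files. The leading transcripts of Dlg1, Dlg2, Dlg4, Homer1, Homer2 and Shank1 are among those that differ.

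Most of Dlg4 was 1 transcript. Dlg4-201, with 664 codons, took 78.1 and 80.0% of its TPM in replicates 1 and 2, and Dlg4-203, with 724 codons, 12.9% in both. Both differ in length between the deposited files and M21, with 3204 against 2708 nt for Dlg4-201 and 3457 against 3488 nt for Dlg4-203. The forms quantified may therefore not have the M21 coding sequences. The M21 coding starts of these transcripts are shown because in that annotation they separate the amino ends of the PSD-95 forms. Capitals mark bases that the coding sequence of Dlg4-201 does not hold, and both runs are on the plus strand of GRCm38 chromosome 11.
Dlg4-201, from 70030625: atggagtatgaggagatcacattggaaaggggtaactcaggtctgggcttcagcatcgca
Dlg4-203, from 70018920: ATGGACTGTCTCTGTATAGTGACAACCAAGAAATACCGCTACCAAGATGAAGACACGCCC
Dlg4-203 has 180 such bases, the first 60 of which are shown, ahead of the 1995 that both share.

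In Dlg1, Dlg1-206 with 905 codons took 35.2 and 33.0% of TPM in replicates 1 and 2 and Dlg1-204 with 834 codons 18.1 and 18.0%. A transcript annotated for nonsense-mediated decay, Dlg1-209, took 11.8 and 11.6%. Each of these shares of Dlg1 was close in the 2 libraries. Dlg2-204, with 852 codons, took 71.5 and 61.1% of Dlg2, and the noncoding Dlg2-207 10.7 and 11.0%. The noncoding Dlg2-209 was far higher in replicate 2, with 59.08 expected counts in replicate 1 and 1119.22 in replicate 2. This transcript is 1926 nt long in the deposited files but 4236 nt in M21, so the form quantified may not be the M21 one. Its TPM was 0.42 in replicate 1 against 8.73 in replicate 2, a log2 ratio of 4.38 with an interval of 2.54 to 6.21. Of the 49 transcripts of the scaffold genes averaging at least 1 TPM, 3 were past 1 on the log2 scale, against 6.63% of all such transcripts. Besides Dlg2-209 these were Dlg2-202, with 1.90 and 0.88 TPM, and the noncoding Dlg4-212, with 1.72 and 0.64 TPM.

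Shank1-203, with 2167 codons, took 62.0 and 68.0% of Shank1 TPM in replicates 1 and 2 but 90.6 and 92.6% of its counts. The noncoding Shank1-206 took 30.2 and 24.5% of TPM and 4.65 and 3.48% of counts. That transcript is 987 nt long, so a small part of the reads makes a large part of TPM. Shank2-205 with 1262 codons took 61.3 and 69.2% of Shank2, and Shank2-202 with 1472 codons 28.8 and 23.2%. Shank3-201 with 1730 codons took 56.1 and 63.2% of Shank3, and Shank3-203 with 1805 codons 15.8 and 13.3%.

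Homer2 was almost wholly Homer2-201, a transcript of 343 codons, at 95.4 and 98.3% of TPM in replicates 1 and 2. Homer2-202 took 4.59 and 1.69%. Homer3-203, with 359 codons, took 63.9 and 65.7% of Homer3, and the noncoding Homer3-208 12.9 and 14.4%. The 11 transcripts listed for Homer1 and the 2 for Homer2 are all complete coding, so no TPM of these genes could fall on another class. Noncoding transcripts took 25.0 ± 0.744% of Homer3 TPM and 50.9 ± 2.51% of Dlg3 TPM.

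**Figure D2:**
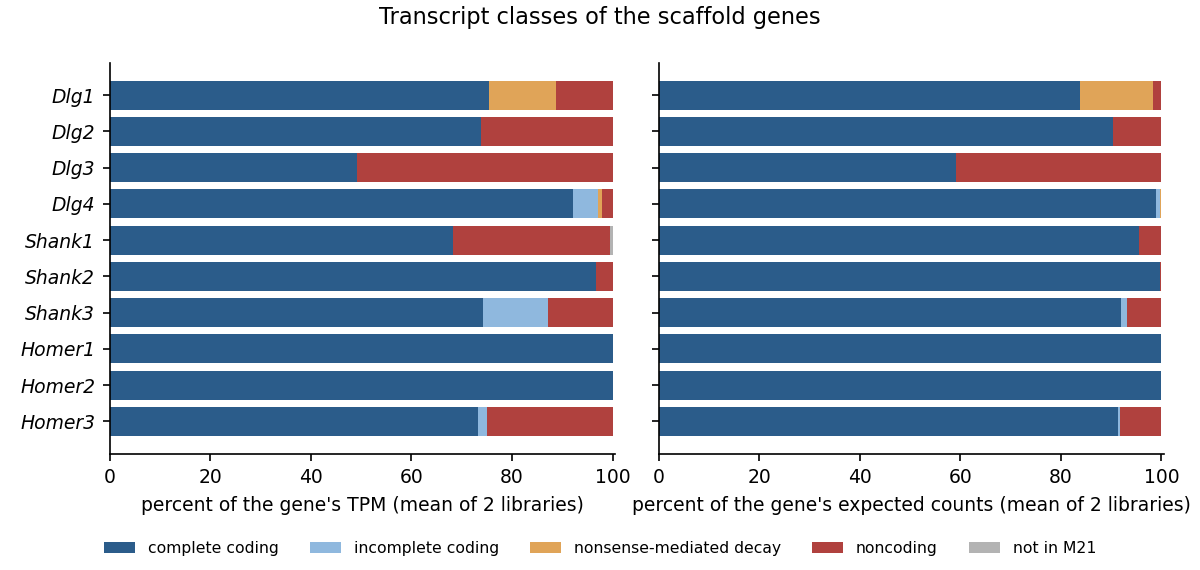
Percent of each gene's TPM (left) and of its expected counts (right) in transcripts of each M21 class, as the mean of 2 libraries. Noncoding transcripts take 50.9% of Dlg3 TPM and 31.1% of Shank1 TPM, and smaller parts of the counts.

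Homer1 differed between the libraries mainly in its short forms. The short transcript Homer1-204, which has the Homer1a layout, had 3.21 TPM in replicate 1 against 5.60 TPM in replicate 2, from 1462.79 and 2309.25 expected counts with posterior SDs of 15.1 and 15.7. Homer1-206, another short form, stood at 1.57 and 2.99 TPM. Homer1-207 stood at 2.37 and 2.19 TPM. The deposited intervals of the libraries were apart for Homer1-204 and Homer1-206, both higher in replicate 2, and overlapped for Homer1-207. The log2 ratio of replicate 2 over replicate 1 was 0.80 (interval 0.70 to 0.90) for Homer1-204, 0.93 (0.64 to 1.22) for Homer1-206 and -0.11 (-0.41 to 0.18) for Homer1-207.

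The long forms of Homer1 did not differ in 1 direction. Homer1-202 had 8.84 TPM in replicate 1 against 9.66 TPM in replicate 2, and Homer1-203 had 8.32 and 6.68 TPM. Their log2 ratios had opposite signs, 0.13 (0.01 to 0.25) and -0.32 (-0.48 to -0.15). Homer1-201, a long form of 354 codons, was listed at 0 in both libraries. Transcripts 208, 209 and 211 of the gene, all short, were also at 0 in both, and Homer1-205 and Homer1-210 had traces in 1 library each.

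Summed over 8 short transcripts, 5 of them detected, Homer1 had 7.20 TPM in replicate 1 and 10.91 TPM in replicate 2, or 29.6 and 40.0% of the gene. Summed over 3 long transcripts, 2 of them detected, it had 17.16 and 16.34 TPM. Short forms were below long forms in both libraries, by a log2 ratio of short over long of -1.25 and -0.58, a mean of -0.92 ± 0.47 (SD, n = 2). This ratio was higher in replicate 2 by 0.67, with an interval of 0.52 to 0.82. Replicate 2 over replicate 1 was 0.60 (0.48 to 0.72) on the log2 scale for the short total and -0.07 (-0.17 to 0.03) for the long total, on a scale where the median of all transcripts was -0.14. With 1 library on each side there is no test of this difference. Of all transcripts averaging at least 1 TPM, 12.6% were above 0.25 on that scale and 46.9% past it in either direction.

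**Figure D3:**
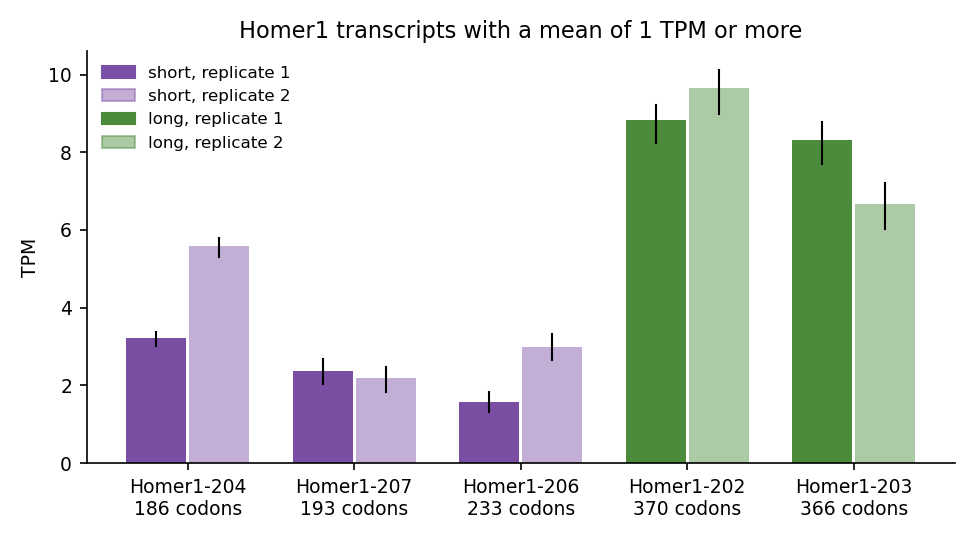
TPM of the 5 Homer1 transcripts averaging at least 1 TPM, short forms left (purple) and long forms right (green), replicate 1 dark and replicate 2 pale, with the deposited intervals as lines. Homer1-204 and Homer1-206 are higher in replicate 2, and Homer1-203 is lower there.

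The sequence ahead of the first RefSeq start of Homer1 is printed to place the transcripts that begin there. The run is RefSeq's promoter before position 93303757, which is also the annotated start of Homer1-207, at chr13:93303507-93303756 (GRCm38.p6, plus strand). Downstream of it start the short forms Homer1-206, at 93304102, and Homer1-204, at 93304495, and the long form Homer1-203, at 93304799. The window thus does not separate short from long forms, nor those higher in replicate 2 from the others. Capitals mark the letters TGACG, the core of the cyclic AMP response element, searched on both strands.
Homer1 promoter: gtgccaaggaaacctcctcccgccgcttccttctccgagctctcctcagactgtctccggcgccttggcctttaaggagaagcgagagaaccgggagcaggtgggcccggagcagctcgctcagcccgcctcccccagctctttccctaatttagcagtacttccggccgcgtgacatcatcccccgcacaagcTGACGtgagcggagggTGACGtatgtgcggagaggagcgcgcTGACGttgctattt
It holds 3 matches, beginning 56, 40 and 14 bases before the start, and no match to the full TGACGTCA. Of 32851 RefSeq promoters of 300 bases, 20.8% hold at least 1 TGACG, 1.03% hold 3 or more and 1.79% hold TGACGTCA. The other Homer1 promoter in the table, at the start of Homer1-202, holds none. The table held promoters of 8 members. TGACG was also in 1 of 2 Dlg3 and 1 of 3 Dlg4 promoters, and in none listed for Dlg1, Dlg2, Homer2, Homer3 and Shank3. A match describes letters and not a bound site, and its part in the values was not tested.

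Between the libraries, Homer1 was the only scaffold gene past 0.25 on the log2 scale, with replicate 2 over replicate 1 taken on CPM, counts scaled to the library total, after TMM scaling. Its ratio was 0.37 (counting interval 0.32 to 0.42). Thus 1 of 10 members was past the fold, against 17.9% of the 14599 genes that averaged at least 1 TPM. Among genes averaging at least 10 TPM, as all members but Homer3 did, the share was 10.1%. Next came Shank3 at 0.24, Shank2 at 0.21 and Dlg4 at 0.21, and Homer2 was the only member below 0, at -0.13 (-0.17 to -0.10), although only 5 of 10 members were above 0 on deposited TPM. The median of the 10 was 0.10 and that of all genes -0.00. Dlg3, on the X chromosome, had a ratio of 0.04 beside the split in Xist. On the deposited TPM scale, where the median of all genes was -0.13, Homer1 was at 0.16 and Homer2 at -0.27, so that Homer2 was past the fold and Homer1 was not. Relative to that median they were at 0.29 and -0.14, and Shank1, at -0.08, was the only other member below it.

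The genes whose proteins bind these scaffolds were mostly within the fold. So were most of all genes averaging at least 1 TPM, of which 17.9% were past it in either direction. Of 17 Dlg partners, 3 (Grin2a, Cacng2 and Dlgap3) were above 0.25 and none below -0.25, with a median of 0.03 and a range of -0.12 (Nlgn1, an adhesion molecule) to 0.33 (Grin2a, an NMDA receptor subunit). Above the fold in all genes were 8.81%. The 3 most abundant partners were the Dlg-binding scaffolds Dlgap1, at 186 and 179 TPM in replicates 1 and 2, Dlgap4, at 121 and 129 TPM, and Dlgap3, at 84.3 and 91.4 TPM. Of 9 Shank partners, 1 was above the fold (Lzts3, which binds Shank3, at 0.28), against 8.81% of all genes, and the median was -0.03. The spectrin Sptan1 had the highest level in that list, 359 and 268 TPM, and the lowest ratio, -0.16. The actin regulators Baiap2, at 118 TPM in both, and Cttn, at 80.0 and 87.9 TPM, followed in mean level.

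None of 8 Homer partners was past the fold, against 17.9% of all genes and 10.1% of those averaging at least 10 TPM. The median of the 8 partners was -0.03. The metabotropic receptor Grm5 was lowest, at 25.6 and 19.9 TPM in replicates 1 and 2 and a ratio of -0.24, and the endocytic dynamin Dnm3 highest, at 0.14. Agap2, a GTPase activator, had 232 and 228 TPM and Itpr1, the calcium release channel, 47.7 and 42.8 TPM. Of 14 other membrane-associated guanylate kinases averaging at least 1 TPM, 1 was above the fold, against 8.81% of all genes. That was Mpp4, at 0.79 and 1.26 TPM, and the list's median was 0.01. Mpp2 led that list at 76.4 and 75.4 TPM, above every scaffold gene but Dlg4. Mpp6 followed at 23.9 and 31.7 TPM and Mpp3 at 26.4 and 23.4 TPM, and Dlg5 had the lowest ratio, -0.15.

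All 11 activity-induced genes were above the fold, against 8.81% of all genes. Their median was 1.12 and their range 0.62 (the phosphatase Dusp1) to 1.91 (the transcription factor Fosb). Cell markers moved as well: 3 of 3 microglial markers were below the fold, against 9.04% of all genes, their summed level being 130 TPM in replicate 1 and 91.0 TPM in replicate 2. Of the oligodendrocyte markers 2 of 3 were above it, with sums of 1672 and 2060 TPM, and of the striatal markers 3 of 3, with sums of 58.2 and 83.7 TPM. No listed marker of these types was at 0 in either library. Their part in the Homer1 difference was not tested, and sex and the replicate cannot be told apart.

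**Figure D4:**
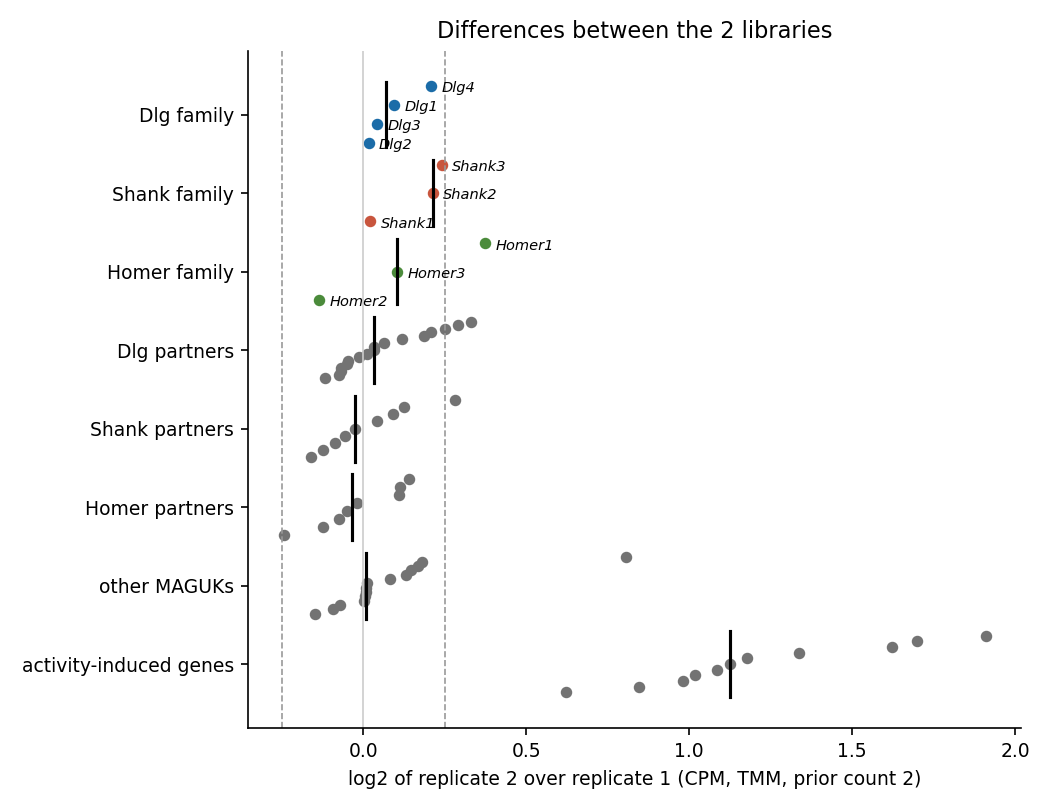
Log2 of replicate 2 over replicate 1 for each scaffold gene and each listed gene averaging at least 1 TPM, with the list median as a black bar and dashed lines at 0.25 on either side of 0. Homer1 at 0.37 is the only scaffold gene past a dashed line, and all 11 activity-induced genes lie beyond it.

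Reads of overlapping genes could enter these values, since whether the counting used strand is not given in the sources used here. Genes on the opposite strand with at least 10 counts in both libraries overlapped Shank1 (1700008O03Rik, 102 and 90 counts in replicates 1 and 2), Shank3 (Gm15609, 46 and 33 counts) and Homer3 (Ddx49, an RNA helicase, 3187 and 2715 counts). For Homer3 the neighbour exceeded the 1275 and 1129 counts of the gene itself. No overlapping gene reached 10 counts in both libraries for the other members. The deposited posterior SD of the count was listed as 0 for all 10 genes.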

How the data were processed

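Gene and transcript quantifications of each library were used, made by the authors on mm10 with annotation M4, per the deposited text description. The program that made them is not given in the sources used here. Deposited values are expected counts (estimated fragments), TPM and FPKM over all entries, with posterior SDs of counts and interval bounds of TPM, read as 95% intervals, a level not stated in the deposited files. The deposited percent of a gene's TPM per transcript gives isoform use. Symbols, classes and coding lengths came from GENCODE M21, and 85 of 86 transcripts matched.

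Replicate ratios were computed from rounded expected counts without spike-ins, with a prior count of 2, TMM factors of 1.02 and 0.982 (edgeR 4.0.16, R 4.3.3) and exact conditional binomial intervals. Spike-ins took 3.50 and 3.47% of all counts. Transcript intervals combine posterior SDs with counting error. The ratio script was tested on simulated data that held counting error alone, as the intervals assume. That test therefore does not cover the spread between animals. Short Homer1 transcripts have a complete coding sequence under 250 codons. Alternatives covered the unit, pseudocount, DESeq2 1.42.0 size factors, library size, spike-in total, prior count, fold, filter and each replicate alone. The rule names all 10 genes, the 2 leading transcripts of each, all coding Homer1 transcripts and, per list, the 3 most abundant genes and those that bound the range. For the cell markers and activity-induced genes, some of these appear only in counts and sums. The other transcripts named were picked with their values known. The members and lists were chosen with earlier results of these data known. The labels call the libraries biological replicates, from separate biosamples that share 1 donor entry, so the SDs may not hold the full spread between animals.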

Additional observations from a re-analysis of the deposited data

How the results depend on the processing

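The 12 within-family pairs kept their direction and stayed beyond the spread on FPKM, posterior mean TPM, rescaled TPM and log2(TPM + 1) with a pseudocount of 1. In each library alone, where no SD exists, all 12 kept their direction with intervals apart. For counts not divided by length and for complete coding transcripts alone, no intervals were used. The rule there asked only for the same direction and a mean above the SD. On counts 10 pairs met it, while Homer1 over Homer2 became -0.90 and Shank3 over Shank2 -0.12. With complete coding transcripts 10 met it, while Dlg3 over Dlg1 became -0.44 and Shank3 over Shank2 -0.12. The cause was not tested. The family shares were 59.3% (Dlg), 30.8% (Shank) and 9.93% (Homer) of counts, and with coding transcripts alone Shank had 18.6% and Homer 8.38%. Posterior mean TPM gave Homer 7.40%. Leaving out each replicate gave shares of 72.0 to 73.0% for Dlg, 19.7 to 20.7% for Shank and 7.33 to 7.37% for Homer.

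At a fold of 0.5 on the log2 scale, 0 members were past it, and the share of all genes past 0.5 was not computed. Ratios within the fold changed sign for 4 members on deposited TPM (Shank1 to -0.22, Dlg1 to -0.08, Dlg3 to -0.07 and Homer3 to -0.05), 3 with library size alone and 2 with the spike-in total. The share of all genes past the fold was 10.1% at 10 TPM or more and 41.6% with no filter. Homer1 short over long was -1.25 to -0.58 in single libraries and kept its sign in every other unit tried, and its difference between libraries kept its sign and stayed beyond its interval in 4 alternatives. Adding incomplete Homer1 coding transcripts gave no value, since none is annotated. No paired analysis was possible because there is 1 group. With 2 libraries each SD has 1 degree of freedom, and depth limits mainly the rare transcripts.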
